A study of Homo sapiens with 8 samples.

Results

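The tubulin genes considered were a list of 9 gene symbols (4 alpha, 4 beta and 1 gamma), looked up in a table of translational efficiency changes for 9339 genes. Values were analysed for 7 of the 9, namely TUBA1A, TUBA1B, TUBA1C, TUBA4A, TUBB4B, TUBB6 and TUBG1. TUBB and TUBB2A, both encoding beta tubulins, were not analysed here. The rule picks genes by name, and the list was drawn up with earlier results of these data known.

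Tubulins are the subunits of microtubules, the hollow filaments that carry cargo, shape the cell and separate chromosomes at mitosis. An alpha and a beta tubulin pair into a dimer that polymerizes, and gamma tubulin, in a ring complex, starts new filaments. Cells also tune the amount of tubulin through translation: when free dimers are in excess, TTC5 recognizes the amino terminus of tubulin as it leaves the ribosome, and the mRNA being translated is degraded. In blood cells microtubules serve division, migration and the traffic of granules and phagosomes.

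The cells were THP-1, a human acute leukaemia line of monocytic type, cultured in RPMI-1640 medium with serum and antibiotics, in which the m6A demethylase ALKBH5 was knocked down (A5-KD in the sample titles) or which served as control. Ribosome footprints, fragments of 25 to 40 nucleotides left after micrococcal nuclease digestion, and input RNA from the same kind of lysate were sequenced from each condition, with 2 libraries in each of the 4 groups and 8 in all. How the knockdown was made, and whether it rests on 1 clone or construct, is not stated in the labels, nor is it said whether the replicates were separate cultures, so the errors may be technical. The control input libraries carry "input" in place of a genotype, and their group rests on the title. Of 11 monocytic marker genes fixed for a check of the cell type, 9 had a value, and of 11 markers of T and B, erythroid, epithelial and fibroblast cells 0 had one.

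The question was whether reduced ALKBH5 changes the translational efficiency of tubulin mRNAs, that is, footprint abundance relative to RNA abundance. The deposited result is 1 fold change per gene over the whole series, so values per library and per condition cannot be shown, and the depth of the libraries is unknown. It is also not stated which condition the fold change is relative to, and every sign below is therefore the deposited sign: positive may stand for higher or for lower efficiency in the knockdown. Mean signal is the authors' baseMean column, by the convention of their tool a mean of scaled values from all 8 libraries. It is not divided by gene length and mixes footprints with RNA, so it shows how much data stands behind a fold change and not which tubulin is more abundant.

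None of the 7 tubulin genes passed an adjusted p of 0.05, and none passed an unadjusted p of 0.05 (riborex with its DESeq2 engine, the authors' deposited table). Only 2 of the 7, TUBA1B and TUBB4B, had enough signal to receive an adjusted p at all, because the table adjusts 648 genes, those with a mean signal of at least 155.3. Among those 648 genes 10 were called, 1.54%, and 66 of all 9339 genes, 0.707%, had an unadjusted p under 0.05. With 7 genes and shares this low, 0 calls does not set tubulins apart from other genes. The fold changes lay between -0.28 and 0.21 on the log2 scale, 5 positive and 2 negative, with a median of 0.06. Centring on the genes with a mean signal of 100 or more, whose median was -0.11, turned TUBA1C positive and left 6 positive and 1 negative. Centring on the median of all genes, -0.02, left the split at 5 and 2. Over all genes the median log2 fold change was -0.02, with 48.1% positive.

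TUBA1B gave the most precise value. It encodes an alpha tubulin made in most dividing cells, and its mean signal of 737.5 ranked 95th of the 9339 genes. Its log2 fold change was 0.19 ± 0.18 (SE of the authors' fit; unadjusted p = 0.30, adjusted p = 0.999) in the authors' deposited table. This is a ratio of 1.14 between conditions, with a 95% interval from 0.893 to 1.45. As deposited, the interval does not hold ratios above 1.45 or below 0.893, but these bounds rest on errors that may be technical. They also depend on centring: on the genes with a mean signal of 100 or more, it moved the log2 fold change to 0.30 and both bounds up. To be called beside the 10 genes that were, TUBA1B would have needed a log2 fold change of 0.59 in size.

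TUBA1B stood on the less common side of the table for a gene of its signal. Of the 100 genes nearest to it in mean signal (575.5 to 1103), 26 had a positive fold change, and their median log2 fold change was -0.17. Of the 648 genes with an adjusted p, 66 had a higher fold change than TUBA1B. This position is a description, since its own error spans 0.

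The other alpha tubulins had lower signal and wider errors. TUBA1C, a close relative of TUBA1B, had a log2 fold change of -0.06 ± 0.54 (unadjusted p = 0.91) at a mean signal of 76.1 in the authors' deposited table. TUBA4A, an alpha tubulin encoded without the carboxy-terminal tyrosine and abundant in platelets, had 0.09 ± 0.77 (unadjusted p = 0.91) at a mean signal of 34.8 in that table. TUBA1A, the alpha tubulin best known from developing neurons, had -0.28 ± 1.14 (unadjusted p = 0.80) at a mean signal of 16.4, also in the authors' deposited table. The most negative value of the 7 was thus also the least precise. The interval of TUBA1A ran from -2.51 to 1.95 on the log2 scale. An estimate of 1 log2 unit in either direction would not have reached an unadjusted p of 0.05 there. The alpha tubulins were 2 positive and 2 negative as deposited, and 3 positive and 1 negative after centring on the genes of higher signal, in which TUBA1C turned to 0.045. TUBA1C stayed negative, at -0.045, after centring on all genes.

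Both beta tubulins among the 7 genes were positive, and neither differed from 0 by more than its error. TUBB4B, a beta tubulin made in most tissues and needed in cilia, had a log2 fold change of 0.06 ± 0.34 (unadjusted p = 0.87, adjusted p = 0.999) at a mean signal of 174.0 in the authors' deposited table. Its 95% interval ran from -0.62 to 0.73, and a log2 fold change of 1.15 in size would have been needed for a call. TUBB6, a divergent beta tubulin, had 0.21 ± 0.43 (unadjusted p = 0.62) at a mean signal of 114.2 in the deposited table of the authors, and its interval ran from -0.62 to 1.04. TUBB6 had the largest positive value of the 7, followed by TUBA1B. Of the 100 genes nearest in mean signal, 33 were positive around TUBB4B and 44 around TUBB6. Around TUBA1C, TUBA1A, TUBA4A and TUBG1 the positive counts were 50, 47, 44 and 41. TUBG1, the gamma tubulin of most cells, had 0.05 ± 0.59 (unadjusted p = 0.94) at a mean signal of 78.8 in the deposited table of the authors, and its interval ran from -1.11 to 1.20.

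**Figure D1:**
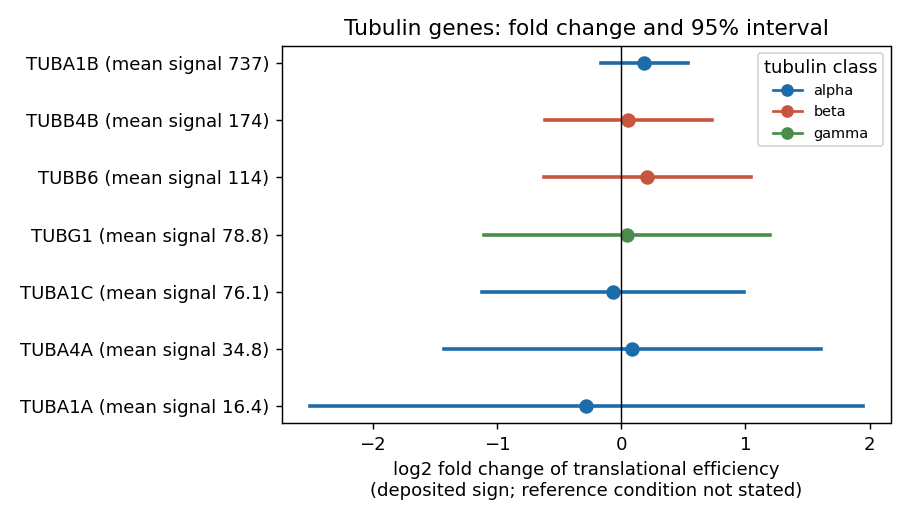
Log2 fold change of translational efficiency (horizontal axis, deposited sign) of the 7 tubulin genes, ordered from the highest mean signal at the top to the lowest, with points for the authors' estimate and bars for the 95% interval computed from the authors' standard error. All 7 bars cross 0, and those of TUBA1B and TUBB4B stay within 1 log2 unit of it.

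The data were thus informative to different degrees within the family. For TUBA1B and TUBB4B, both bounds of the 95% interval lay within 1 log2 unit of 0, and for the other 5 genes at least 1 bound lay outside. The smallest change that would have reached an unadjusted p of 0.05 was 0.35 log2 units for TUBA1B, 0.67 for TUBB4B, 0.83 for TUBB6, 1.05 for TUBA1C and 1.15 for TUBG1. It was 1.52 for TUBA4A and 2.23 for TUBA1A. The 95% intervals overlapped in all 21 pairs of the 7 genes, which does not show that the genes responded alike. A difference between members was not tested, because the estimates share libraries and their covariance is not part of the table.

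The errors themselves lay within the range of genes of like signal, with TUBB6 and TUBB4B near the small end and TUBG1 in the larger part. Among the 100 genes nearest in mean signal, 9 had a smaller standard error than TUBB6 and 11 a smaller one than TUBB4B. For TUBA4A, TUBA1B, TUBA1C and TUBA1A these counts were 25, 38, 44 and 52, and for TUBG1 74 of the 100 had a smaller one.

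**Figure D2:**
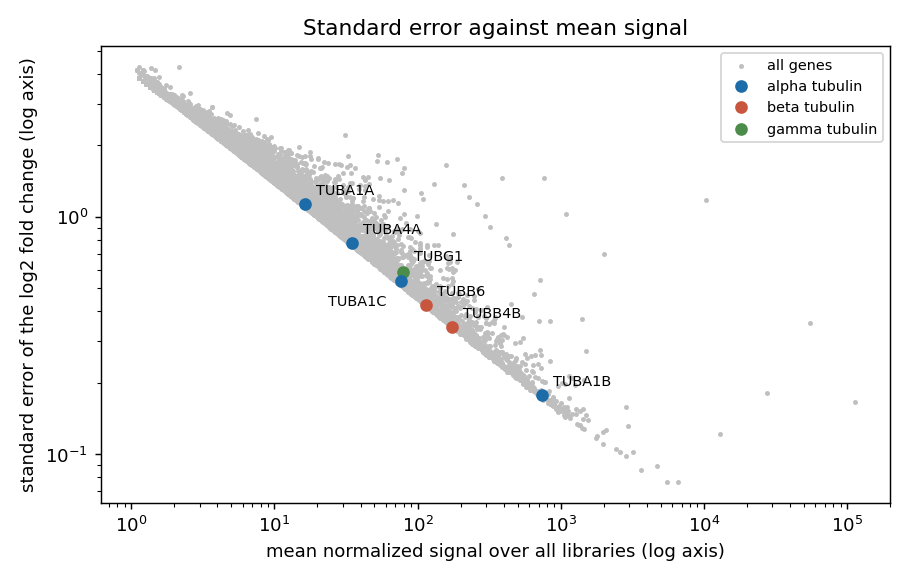
Standard error of the log2 fold change against mean normalized signal over all 8 libraries, both on log axes, with 1 grey point for each of the 9339 genes and the 7 tubulin genes in colour by class. The tubulin genes lie within the band of all genes, from TUBA1A (standard error 1.14) to TUBA1B (0.18).

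Near-identical copies may limit how far these values belong to single genes. In the annotation of GRCh38.p14, TUBA1B (49127782 to 49131395), TUBA1A (49184795 to 49189080) and TUBA1C (49227926 to 49274600) lie together on chromosome 12, within 146.8 kb. Their proteins are known as nearly identical, which was not checked here. TUBA4A is on chromosome 2 (219249710 to 219254740), TUBB4B on chromosome 9 (137241287 to 137243707), TUBG1 on chromosome 17 (42609683 to 42615238) and TUBB6 on chromosome 18 (12307669 to 12329826), where the coordinates run over exons and introns from end to end. That annotation holds 17 pseudogenes with an alpha tubulin name and 38 with a beta tubulin name, 8 of them named for TUBB4B and 1 for TUBB6. It also holds 2 protein-coding gamma tubulin genes and 1 gamma tubulin pseudogene. Footprints of 25 to 40 nucleotides may match several of these copies. How reads shared among them were assigned, and whether counting used strand, is not stated in the labels, so the values of all 7 genes are uncertain in that respect. The spans of TUBA4A, TUBB4B and TUBB6 also overlap those of other protein-coding genes, STK16 and TUBA4B, CIMIP2A, and AFG3L2 in that order.

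Of 15 further protein-coding tubulin genes in the annotation, 3 had a value, each with a mean signal under 10. TUBB3, the beta tubulin used as a marker of neurons, had -0.44 ± 2.81 in the authors' deposited table. In the authors' deposited table TUBD1 and TUBE1, the delta and epsilon tubulins of centrioles, stood at 0.23 ± 2.03 and -0.35 ± 1.87. The errors exceed the fold changes several times over, and no change could have been detected in these genes short of several log2 units.

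The genes that make, modify and use tubulin were read from 6 lists. Counting the 3 further tubulins, only 5 of 78 related genes with a value had an adjusted p. None of these was called, beside 10 of 648 genes, 1.54%, in the whole series. Only 1 gene, TBCA, had an unadjusted p under 0.05, beside 66 of all 9339 genes, 0.707%. With counts this small, neither sets the related genes apart from other genes. TBCA encodes the folding cofactor that holds newly folded beta tubulin before the dimer is assembled. Its log2 fold change was -0.80 ± 0.28 (unadjusted p = 0.0039, adjusted p = 0.13) at a mean signal of 286.7 in the authors' deposited table, a ratio of 0.574 with a log2 interval from -1.34 to -0.26. It did not pass the adjustment. Among the 648 genes with an adjusted p, 57 had an unadjusted p under 0.05.

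Folding cofactors and prefoldin, the complex that hands unfolded tubulin and actin to the cytosolic chaperonin, had values for 13 of 13 genes, 5 positive and 8 negative, with a median log2 fold change of -0.02. The prefoldin subunits PFDN2 and PFDN5 had -0.32 ± 0.25 and -0.25 ± 0.30 (adjusted p = 0.96 and 0.999) in the authors' deposited table. Both signs were opposite to those of TUBA1B and TUBB4B, and the difference was not tested.

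The gamma-tubulin ring complex, on which TUBG1 acts, had values for 9 of 9 genes, 6 positive and 3 negative, with a median of 0.28 and a median mean signal of 8.72. MZT2B, MZT2A and MZT1, small proteins of the ring, had -0.76 ± 0.61, -0.13 ± 0.55 and -0.09 ± 0.84 in the authors' deposited table, and the ring subunit TUBGCP2 had 0.05 ± 1.29. MZT2A and MZT2B are near-identical copies and their reads may be split between them. Of the genes that degrade tubulin mRNA under excess tubulin, the authors' deposited table gave 0.35 ± 1.29 for TTC5, 1.14 ± 2.68 for SCAPER, the adaptor between TTC5 and the deadenylase complex, and -0.10 ± 1.63 for CNOT11, a subunit of that complex. Signal was too low in all 3 for an estimate of 1 log2 unit to reach an unadjusted p of 0.05.

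Enzymes and partners that modify tubulin were mostly positive, at low signal. Values were present for 8 of 16, 7 positive and 1 negative, with a median log2 fold change of 0.27 and a median mean signal of 7.55. SVBP, the partner of the vasohibins that remove the terminal tyrosine of alpha tubulin, had 1.36 ± 1.72 in the authors' deposited table. The deacetylase SIRT2 had 0.27 ± 1.32, TTLL12 of the tyrosine ligase-like family 0.32 ± 1.42 and the deglutamylase AGBL5 0.07 ± 2.02 in the authors' deposited table. None of the 8 had an unadjusted p under 0.05, and 7 of 8 positive values with errors of this size is a description only.

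Among proteins that steer microtubule dynamics, 17 of 20 had values, 10 positive and 7 negative, with a median of 0.12. STMN1, or stathmin, which binds free dimers and promotes disassembly, was the 1 member with an adjusted p. It had a log2 fold change of -0.28 ± 0.16 (unadjusted p = 0.084, adjusted p = 0.69) at a mean signal of 873.0 in the authors' deposited table. Among dynein, dynactin and kinesin motor genes, 25 of 25 had values, 9 positive and 16 negative, with a median of -0.06. DYNLL1, a dynein light chain, had -0.14 ± 0.29 (adjusted p = 0.999) at a mean signal of 314.6 in the authors' deposited table. Counting also the 3 further tubulins, these lists held 78 measured genes, 40 positive and 38 negative, with a median mean signal of 16.5. Their median log2 fold change was 0.02 against -0.02 over all genes. It was likewise 0.02 over all genes with a mean signal from 10 to under 100.

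**Figure D3:**
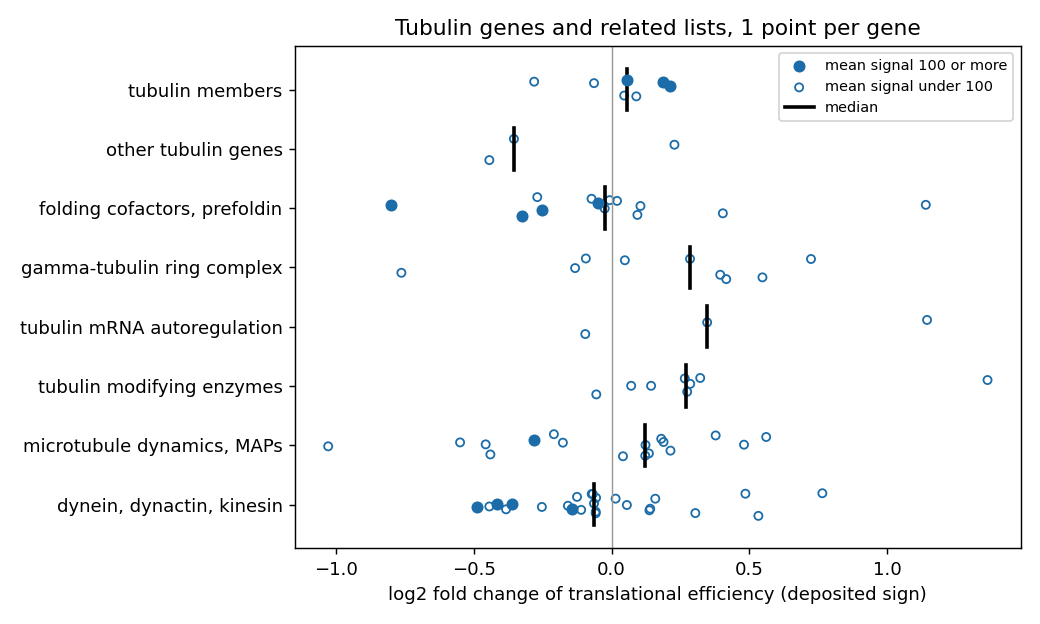
Log2 fold change of translational efficiency (horizontal axis, deposited sign) of the 7 tubulin genes and of each related list, 1 point per gene, filled for a mean signal of at least 100 and open below, with a black bar at the list's median. Open points spread widest, and the filled tubulin points, TUBA1B, TUBB4B and TUBB6, lie between 0.06 and 0.21 while TBCA lies at -0.80.

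Among the genes of highest signal, related genes and tubulins had opposite signs. TBCA, PFDN2, PFDN5, STMN1 and DYNLL1, the 5 related genes with an adjusted p, were all negative, as were 68.4% of the 648 genes, while TUBA1B and TUBB4B were positive. None of these 7 genes passed, and the difference in sign was not tested.

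Only 1 tubulin gene, TUBA1B, was called under any of the 8 other ways of testing or adjusting that were tried, and under 1 of them. Centred or divided statistics were adjusted over the 648 genes alone, which hold TUBA1B and TUBB4B. TUBA1A, TUBA1C, TUBA4A, TUBB6 and TUBG1 could not be called under those settings. Over all genes the Wald statistics spread less than their errors imply, with a robust spread (the scaled median absolute deviation) of 0.28, where statistics of unchanged genes with correct errors have a spread of 1. After division by this spread TUBA1B passed (adjusted p = 7.4e-04), with 47.5% of the 648 genes (308) passing too, and TUBB4B did not (adjusted p = 0.66). Among the 648 genes themselves the spread was 0.81, and with that value TUBA1B did not pass (adjusted p = 0.75).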

How the data were processed

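One deposited table of 9339 genes was used, and 0 of its columns hold values per library. By the table's name the authors used riborex with the DESeq2 engine, versions not stated. CASAVA, kallisto, HISAT2 2.1.0 and the build hg38 appear in the submitters' processing notes without their roles. Per the file headers, the authors' columns are a mean signal (baseMean), a log2 fold change with its standard error, a Wald statistic (a score), a p-value and an adjusted p-value. The statistic was checked to be the fold change over its error, and the adjusted p a Benjamini-Hochberg adjustment over 648 genes.

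From these, 95% normal intervals, ranks, counts and medians were computed (Python 3.11.15, pandas 2.3.3, scipy 1.17.1). Simulated data were used to test the ways of adjusting p-values, and not the intervals, ranks, counts or medians. The simulated noise had the size of the deposited errors, so it could not show whether division by a spread suits these data. All measured members are named. From each related list the text names the genes with an adjusted p, or else up to 4 of highest mean signal, and any gene with an unadjusted p under 0.05. Members and lists were chosen with earlier results of these data known. Positions come from the RefSeq table of GRCh38.p14. A planned comparison of protein sequences was not made, since protein sequences were not used here.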

Additional observations from a re-analysis of the deposited data

How the results depend on the processing

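The number of tubulin genes called was 0 as deposited and stayed 0 with the adjustment over all genes, over genes whose mean signal reached 100 or 10, after centring on the median of genes whose mean signal reached 100, and at an unadjusted p. It was 1, TUBA1B, with the statistics divided by their robust spread over all genes, a setting that called 308 of 648 genes; whether the deposited errors are too wide was not tested. It was 0 with the spread of the 648 genes, alone or after centring (adjusted p of TUBA1B 0.75 and 0.40, both chosen after seeing the data). With centring or division by a spread, TUBA1B and TUBB4B were the only tubulin genes that could be called. Centring on higher-signal genes moved all fold changes up by 0.11, because the median of genes whose mean signal reached 100 was -0.11; the log2 fold change of TUBA1C then turned from -0.06 to 0.045, and the other 6 genes kept their sign. Centring on the median of all genes left TUBA1C at -0.045 and changed no sign. The median over the 7 genes was 0.06 as deposited and between 0.07 and 0.19 under the 6 alternatives tried. No paired analysis was possible because the table holds no values per library, and for the same reason no library could be left out. Mean signal limits what could be detected. The smallest estimate to reach an unadjusted p of 0.05 ran from 0.35 log2 units for TUBA1B to 2.23 for TUBA1A. A call needed an estimate of 0.59 for TUBA1B and 1.15 for TUBB4B.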
